A study of Homo sapiens with 6 samples.

Results

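Zinc finger genes are host genes of many circular RNAs (circRNAs), and their circles were compared here in PANC-1-GR cells, the gemcitabine-resistant line, and in PANC-1 cells, from which it was derived. The members were the back-splice junctions whose host gene name begins with ZNF, ZKSCAN, ZSCAN, ZBTB, ZFP or KLF followed by a digit. They were 165 of the 7746 listed junctions and came from 86 of 3348 host genes. PANC-1 is an established human line grown from a pancreatic duct carcinoma. PANC-1-GR was selected over 40 weeks in gemcitabine raised from 0.1 to 200 μg/ml and was then kept with 10 μg/ml added periodically. The labels of the PANC-1 controls name no drug. Each line gave 3 libraries of total RNA, and the labels do not say whether these came from separate cultures, so p-values measure the spread between libraries, which may be technical. The resistant line is a single selected line, so the drug, the selection and the later culture cannot be told apart.

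Genes with C2H2 zinc fingers encode the largest family of human transcription factors. Many of them carry a KRAB domain, encoded by small separate exons, through which they recruit the corepressor TRIM28 and silence genes and transposable elements, while the ZBTB proteins carry a BTB domain instead. A circRNA arises when the splice donor at the end of an exon is joined backwards to the acceptor of the same or an earlier exon, and the read across this back-splice junction is the measurement used here. Most members fit the family name, but the rule also took ZNF337-AS1, an antisense RNA gene, ZNF876P, a pseudogene, and ZBTB8OS, which lies opposite ZBTB8A. How strand was used in assigning junctions to genes is not stated. The ZNF prefix gave 146 junctions of 74 genes, ZBTB 16 junctions of 10 genes, KLF 2 junctions of KLF12 and ZKSCAN 1 junction of ZKSCAN1, and no junction was listed for ZSCAN or ZFP.

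The junctions of the most abundant circles are shown first, because they define what was counted. Each line gives 15 bases on either side of the back-splice, with the donor side in lower case and the acceptor side in capitals. The sequences were read 5′ to 3′ from GENCODE release 29 transcripts (GRCh38), whose exons were matched to a circle by its span and its spliced length. Coordinates in the text are those of the deposited table (hg19).
ZKSCAN1 hsa_circ_0001727: tcttacagtcacgagGAATAGTAAAGAAAC
ZNF608 hsa_circ_0001523: atgaaacagaagaagGTTGACCCCCTGTTT
ZNF292 hsa_circ_0004058: tggataaggataaagACACTCCTAGAATAT
ZBTB44 hsa_circ_0002484: agtcttcctctatagGACATTTCTGATTTA
ZNF148 hsa_circ_0001333: gcacttaatgtccctGATAGAGGGAGGAAT
ZBTB46 hsa_circ_0002805: cccactcgctgtcccAGTCTGTAGAAGAGG
ZBTB46 hsa_circ_0061179: gcagccgagactcaaAGTCTGTAGAAGAGG
ZNF236 hsa_circ_0004979: catgaaaaggaagagATGGAGTTTTAACAT
ZNF236 hsa_circ_0001993: ttaggatacacacagATGGAGTTTTAACAT
ZNF236 hsa_circ_0000857: caccgtttctacctgATGGAGTTTTAACAT
The capitals are the same in both ZBTB46 circles and in all 3 ZNF236 circles, since the circles of each gene shared one acceptor and differed in the donor.

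The zinc finger circles held 2096 junction reads, 1098 in PANC-1-GR and 998 in PANC-1. They made up 3.10%, 3.52% and 3.21% of the junction reads in the PANC-1-GR libraries, against 2.84%, 3.28% and 2.87% in the PANC-1 libraries. The lines overlapped, because the second PANC-1 library lay above 2 of the PANC-1-GR libraries. Summed levels were 328 ± 22.2 junction reads per 10000 in PANC-1-GR and 300 ± 24.6 in PANC-1 (SD, n = 3 each). The ratio of pooled reads, scaled to the totals, was 1.08 (95% Clopper-Pearson interval 0.990 to 1.18), which covers counting error only, as reads that carry no molecular identifier may repeat a molecule. The libraries held 9222 to 13689 junction reads in PANC-1-GR and 9429 to 11964 in PANC-1, so most circles rested on few reads. Of the 165 members, 86 had 2 to 4 reads in total (52.1%, against 56.2% of the other junctions). In 1 line only 51 were seen (22 only in PANC-1-GR and 29 only in PANC-1, none with more than 5 reads). Of the 7581 other junctions, 1497 were seen only in PANC-1-GR and 1592 only in PANC-1. In every library 32 members and 937 other junctions were seen. Levels of the linear transcripts were not analysed, so circles and mRNA of a gene cannot be compared. Of 8 duct epithelium markers only KRT19 had a listed junction, with 1 read in PANC-1-GR and 2 in PANC-1, and no fibroblast, blood, endothelial, acinar or endocrine marker had one, so junction reads hardly allowed a check of the cell type.

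Reads were concentrated in a few circles. The 12 circles with the most reads held 46.8% of all member reads, and 20 of the 165 members (12.1%) had 30 or more reads, against 4.45% of the other listed junctions. The most abundant was hsa_circ_0001727 of ZKSCAN1, a KRAB and SCAN domain gene whose circle is a widely used model of circularization by flanking Alu repeats. It joins exons 2 and 3 (chr7:99621042-99621930, + strand) and had 26, 12 and 19 reads in PANC-1-GR and 25, 28 and 11 reads in PANC-1. The lines overlapped widely, and the log2 fold change of -0.21 was smaller than its standard error of 0.31.

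hsa_circ_0001523 of ZNF608, a regulator closely related to ZNF609, came next with 102 reads and consists of the 256 bases of exon 2 alone (chr5:124036707-124036962, - strand). It had 22, 25 and 16 reads in PANC-1-GR and 14, 12 and 13 in PANC-1, or 16.1, 27.1 and 14.7 junction reads per 10000 against 11.7, 10.2 and 13.8. Every PANC-1-GR library thus lay above every PANC-1 library. The log2 fold change was 0.65 (standard error 0.33), with an unadjusted p of 0.0518 in the quasi-likelihood test of edgeR and a Benjamini-Hochberg adjusted p of 0.978, so it did not pass the test. An exact permutation test over the libraries gave p = 0.1, the smallest that 3 libraries against 3 allow.

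hsa_circ_0004058 of ZNF292, a large zinc finger protein, joins exons 2 to 4. It had 16, 15 and 18 reads in PANC-1-GR and 14, 21 and 9 in PANC-1. hsa_circ_0002805 of ZBTB46, a transcription factor known from dendritic cells, had 18, 20 and 14 reads in PANC-1-GR and 17, 12 and 10 in PANC-1. hsa_circ_0002484 of ZBTB44 is the 1074 bases of exon 2, which hold the start codon, and had 21, 10 and 19 reads in PANC-1-GR and 10, 21 and 8 in PANC-1. None of these 3 circles separated the lines. hsa_circ_0001333 of ZNF148, which binds GC-rich promoters, had 14, 8 and 10 reads in PANC-1-GR and 15, 10 and 13 in PANC-1, again with overlap. hsa_circ_0000615 of ZNF609, whose circle can be translated in muscle cells, had 10, 16 and 16 reads in PANC-1-GR and 7, 11 and 7 in PANC-1. Its log2 fold change was 0.72 (standard error 0.41), and 1 PANC-1-GR library lay within the PANC-1 range of levels.

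**Figure D1:**
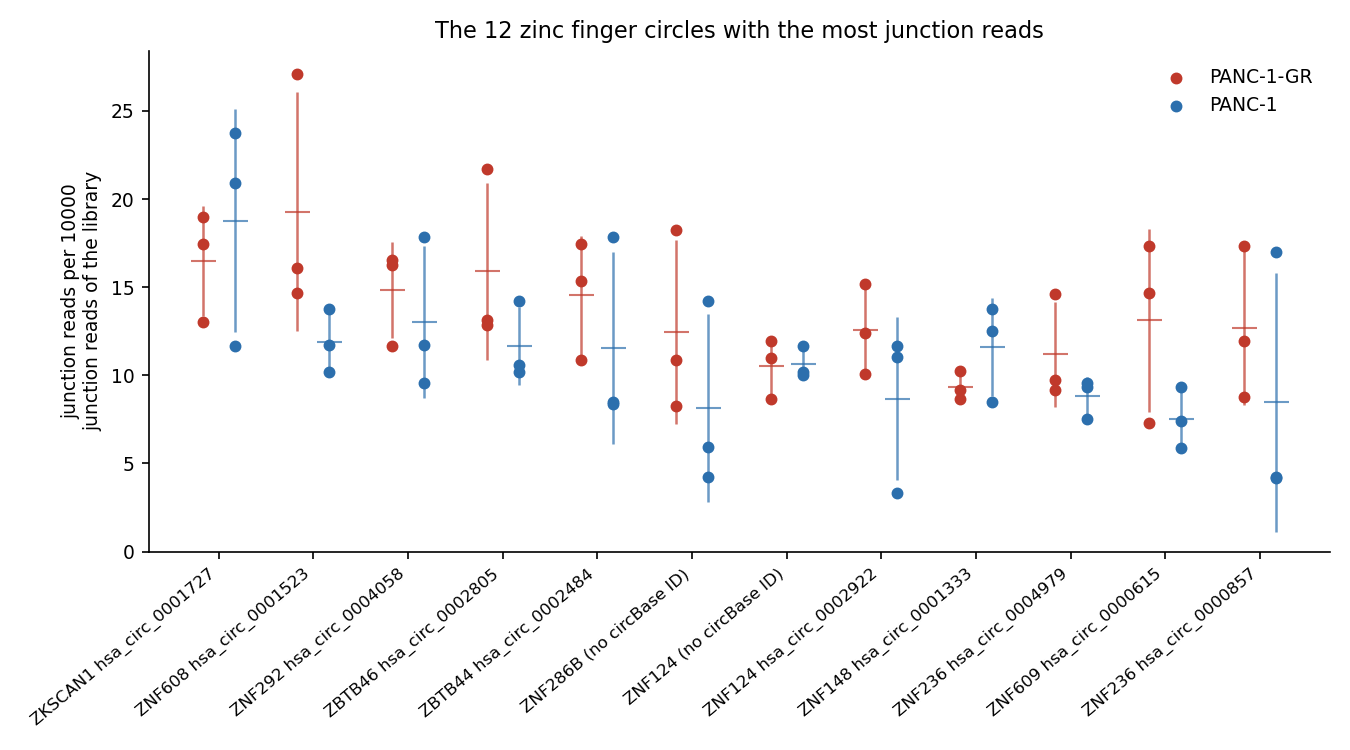
Reads per 10000 junction reads in each library (vertical axis) for the 12 zinc finger circles with the most reads, PANC-1-GR in red and PANC-1 in blue; points are libraries and bars give the mean and SD (n = 3 each). Only hsa_circ_0001523 of ZNF608 had every PANC-1-GR library (lowest 14.7) above every PANC-1 library (highest 13.8).

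In the comparison of the lines, no zinc finger circle was called. The edgeR quasi-likelihood test covered 969 listed circRNAs, those with 3 or more reads in 3 or more libraries, of which 29 were members. A call needed both a 2-fold difference and an unadjusted p no higher than 0.05, and 2.79% of all tested circRNAs were called higher and 1.44% lower. Among the 29 members 0 were called in either direction, 0 had an unadjusted p of at most 0.05 (5.06% of all tested circRNAs), and 0 passed an adjusted p of 0.05, which no circRNA of the table did. Their log2 fold changes ran from -0.98 to 0.91, with standard errors of 0.31 to 1.02. They were above 0 in 17 of 29 members (58.6%), against 46.4% of all tested circRNAs, and the median was 0.31, against -0.04. With no filter, the median over all 165 members was -0.03, against 0.003 over all 7746 listed circRNAs. In the 29 tested members it ran from 0.11 to 0.34 with each library left out. The levels of the lines did not overlap in 2 members (6.90%), ZNF608 hsa_circ_0001523 and ZNF680 hsa_circ_0002566, against 10.8% of all tested circRNAs. On simulated counts the test called 34.0% of the features set to a 2-fold change and 85.2% of those set to 4-fold, so a 2-fold change of one circle would often be missed at this depth. It also called 3.67% of the simulated features left unchanged. DESeq2 and the exact test of edgeR called 0 members, and limma-voom called 1, hsa_circ_0008338 of ZNF215. Over all 969 circRNAs, DESeq2 called 9 higher and 5 lower, the exact test 24 and 14, and limma-voom 19 and 14.

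The members with the smallest p after ZNF608 were higher in PANC-1-GR. hsa_circ_0008338 of ZNF215, a KRAB and SCAN gene in the imprinted region of chromosome 11, had 8, 10 and 11 reads in PANC-1-GR and 5, 9 and 1 in PANC-1. The log2 fold change was 0.91 (standard error 0.50), and the second PANC-1 library lay inside the PANC-1-GR range of levels. hsa_circ_0003423 of ZNF532 had 12, 10 and 6 reads in PANC-1-GR and 2, 6 and 7 in PANC-1, and overlapped between the lines (log2 fold change 0.84, standard error 0.50). The calls depended on single libraries. With each library left out, 22 to 35 of all 969 tested circRNAs were called higher. ZNF215 (1.16) and ZNF609 (1.03) were called without the first PANC-1-GR library, ZNF532 (1.05) without the third PANC-1-GR library, the intronic circle of ZNF286B (1.29) without the first PANC-1 library, ZNF215 (1.59) without the second PANC-1 library, and ZNF532 (1.23) and hsa_circ_0000857 of ZNF236 (1.48) without the third PANC-1 library.

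Among the members with lower values, hsa_circ_0002566 of ZNF680 and hsa_circ_0006364 of ZNF81, both of KRAB genes, had the smallest p. The ZNF680 circle had 4, 4 and 4 reads in PANC-1-GR and 8, 6 and 8 in PANC-1, and every PANC-1-GR level lay under every PANC-1 level. Its log2 fold change was -0.90 (standard error 0.56, unadjusted p = 0.107 and adjusted p = 0.978 by edgeR). The ZNF81 circle had 4, 4 and 6 reads in PANC-1-GR and 12, 8 and 5 in PANC-1, with overlap (log2 fold change -0.85, standard error 0.52). hsa_circ_0001726 of ZNF394, a KRAB and SCAN gene, had 8, 3 and 5 reads in PANC-1-GR and 9, 5 and 9 in PANC-1, and its lines overlapped. None of the 3 passed the test.

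**Figure D2:**
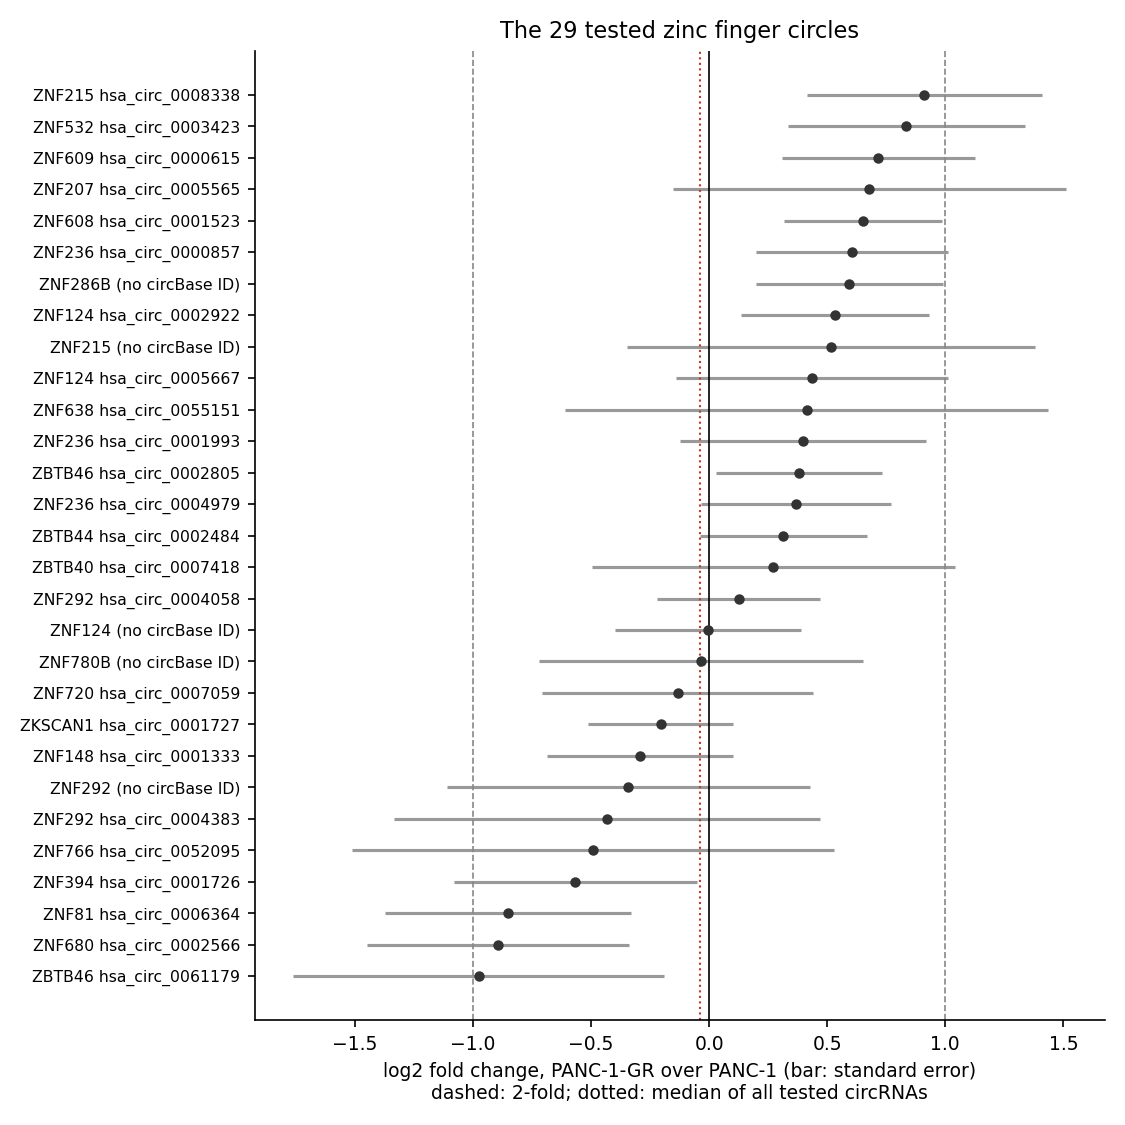
Log2 fold change of PANC-1-GR over PANC-1 (horizontal axis) for the 29 tested zinc finger circles, with standard errors as bars; dashed lines mark a 2-fold change and the dotted line the median of all tested circRNAs (-0.04). All points lie inside the dashed lines, from -0.98 for hsa_circ_0061179 of ZBTB46 to 0.91 for hsa_circ_0008338 of ZNF215.

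Junction reads were then summed per host gene, which raises the counts of genes with several circles. Of the 1093 host genes that passed the same filter 30 were members, and 0 of these were called, against 1.56% of all host genes called higher and 2.10% called lower. The median log2 fold change of the 30 was 0.07, against 0.001 over all tested host genes. At an unadjusted p of at most 0.05 in the edgeR test there were 2 members (6.67%, against 5.76% of all host genes), ZNF608 and ZNF215. ZNF608 had 30, 30 and 19 reads in PANC-1-GR and 19, 16 and 13 in PANC-1, and its levels did not overlap between the lines. Its log2 fold change was 0.72 (standard error 0.30), with an unadjusted p of 0.0162 and an adjusted p of 0.737 by edgeR. The 7 junctions of ZNF608 other than hsa_circ_0001523 had 8, 5 and 3 reads in PANC-1-GR and 5, 4 and 0 in PANC-1. ZNF215 had 13, 12 and 13 reads in PANC-1-GR and 8, 12 and 1 in PANC-1, and the low count of the third PANC-1 library stood apart. The log2 fold change was 0.86 (standard error 0.43, unadjusted p = 0.0494 and adjusted p = 0.857 by edgeR). ZNF215 was called without the second PANC-1 library, at a log2 fold change of 1.44, and by limma-voom, at 1.16. Of all 1093 host genes, 28 were called higher without that library and 22 by limma-voom.

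ZNF286B came next with 25, 10 and 12 reads in PANC-1-GR and 17, 7 and 4 in PANC-1. It was called without the first PANC-1 library, at a log2 fold change of 1.40, when 19 of all 1093 host genes were called higher. ZNF286B and ZNF286A are near-identical copies, so the division of reads between them is uncertain. On the lower side, ZBTB11, a BTB zinc finger gene, had 2, 1 and 0 reads in PANC-1-GR and 5, 3 and 3 in PANC-1, summed over 3 junctions that share an acceptor. Its levels did not overlap, but the log2 fold change of -1.76 had a standard error of 1.05 and an unadjusted p of 0.0943 in the edgeR test. ZNF81 and ZNF680 have 1 listed junction each, with the reads given above. The lines did not overlap in 4 of the 30 genes (13.3%), against 10.6% of all host genes. Levels in PANC-1-GR were higher for ZNF608 and ZNF609 and lower for ZBTB11 and ZNF680. ZNF609 had 13, 16 and 16 reads in PANC-1-GR and 10, 11 and 7 in PANC-1. Its log2 fold change was 0.69 (standard error 0.38, unadjusted p = 0.0729 and adjusted p = 0.917 by edgeR).

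Several host genes used 1 acceptor for many circles. ZNF236, a large zinc finger gene that was cloned as glucose-responsive, had the most junctions, 14, and the most reads, 232. Of these junctions 9 began at the acceptor of exon 2 (chromosome 18, position 74561482) and held 218 reads, 94.0% of the reads of the gene. The donors lay at the ends of exons 3, 4, 5, 6, 9, 14, 25 and 27, and the ninth junction matched no annotated exons. The 3 commonest were hsa_circ_0004979 (exons 2 and 3), hsa_circ_0000857 (exons 2 to 9) and hsa_circ_0001993 (exons 2 to 5).

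hsa_circ_0004979 took 29.8% of the ZNF236 reads in PANC-1-GR (interval 22.1 to 38.4%) and 28.7% in PANC-1 (20.1 to 38.6%). hsa_circ_0000857 took 31.3% in PANC-1-GR (23.5 to 40.0%) and 25.7% in PANC-1 (17.6 to 35.4%). The intervals of both circles overlapped between the lines. They pool the reads of a line and cover counting error only. The share of hsa_circ_0000857 was 22.2, 44.4 and 31.7% in the PANC-1-GR libraries and 19.2, 12.8 and 44.4% in the PANC-1 libraries. hsa_circ_0000857 had 12, 16 and 13 reads in PANC-1-GR and 5, 5 and 16 in PANC-1, so its level in the third PANC-1 library was well above those of the other PANC-1 libraries and near the highest of PANC-1-GR. A minor circle of exons 2 to 4, hsa_circ_0002799, had 1, 0 and 0 reads in PANC-1-GR and 2, 3 and 2 in PANC-1. It was too sparse for the test and was singled out after its values were seen. Summed over the gene, ZNF236 had 54, 36 and 41 reads in PANC-1-GR and 26, 39 and 36 in PANC-1, and the levels overlapped (log2 fold change 0.36, standard error 0.22).

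**Figure D3:**
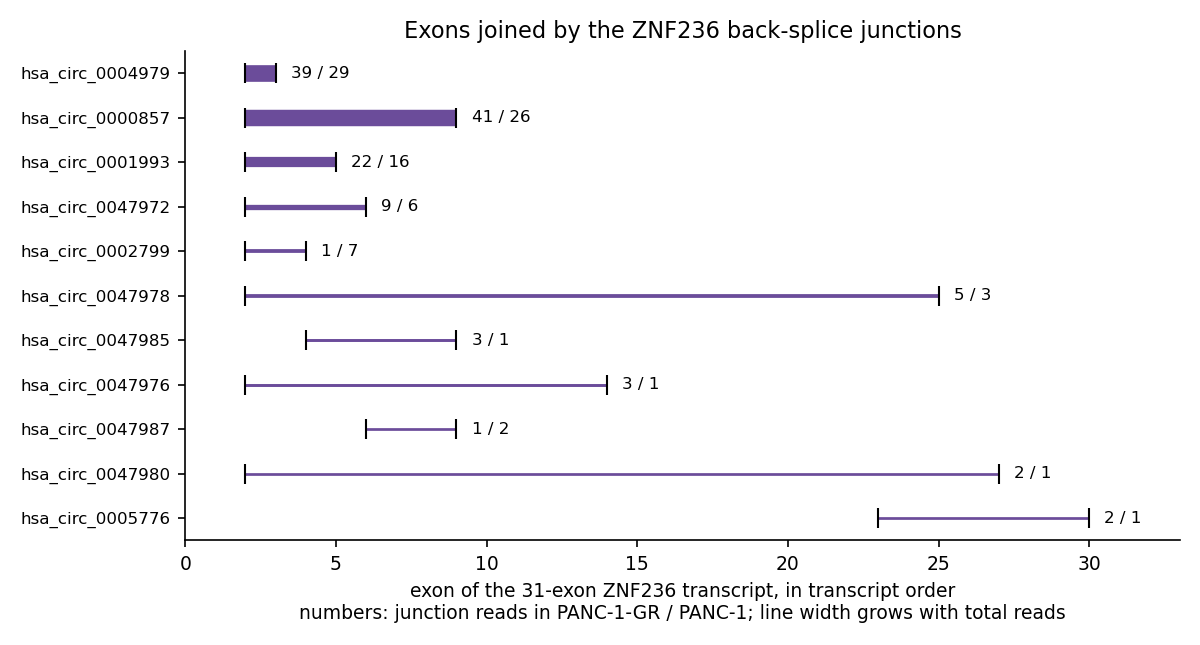
First and last exon of the 11 ZNF236 circles that matched the annotated transcript (horizontal axis: exon number, of 31); line width grows with total reads, and the numbers give junction reads in PANC-1-GR and then in PANC-1. Of these circles 8 begin at exon 2, and the 3 widest end at exons 3, 9 and 5.

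ZNF124, a KRAB gene, had 195 reads in 6 junctions, and 5 of these with 192 reads shared the acceptor at position 247323115 of chromosome 1 (- strand). Of these circles 4 matched no annotated pair of exon ends, and the table files them as sense overlapping. The most abundant, 247319708 to 247323115, had 15, 8 and 13 reads in PANC-1-GR and 12, 12 and 11 in PANC-1, and hsa_circ_0002922 had 17, 14 and 11 reads in PANC-1-GR and 4, 13 and 11 in PANC-1. The lines overlapped in both circles, and their log2 fold changes were -0.01 (standard error 0.39) and 0.53 (standard error 0.40).

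ZNF608 had 115 of its 127 reads at one acceptor, ZNF292 113 of 127 and ZNF148 76 of 90, in 4, 3 and 3 junctions. ZBTB46 had 2 circles with one acceptor, exon 2 alone (hsa_circ_0061179) and exons 2 and 3 (hsa_circ_0002805). The single-exon form had 1, 3 and 2 reads in PANC-1-GR and 6, 5 and 1 in PANC-1 (log2 fold change -0.98, standard error 0.79). It took 10.3% of the ZBTB46 reads in PANC-1-GR (3.89 to 21.2%) and 23.5% in PANC-1 (12.8 to 37.5%), with overlapping intervals. ZNF207, a microtubule-binding protein of the spindle despite its name, had 5 junctions, with 7, 5 and 7 reads in PANC-1-GR and 5, 9 and 3 in PANC-1.

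The exon structure of the members was read from GENCODE for the 126 junctions in the exonic category, of which 118 matched annotated exons at both ends, as did 6059 of 6459 exonic circles of other genes. The circles began at exon 2 in 69 of the 118 (58.5%), against 33.3% in other genes. Among those with coding sequence 33.3% held the start codon, or 38 of 114, against 899 of 5981 in other genes. The median was 3 exons in both. No test of these shares was made.

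Of the exonic members 14 consisted of 1 exon, taken as a spliced length equal to the genomic span, which was 11.1% against 5.53% of exonic circles of other genes. The length also equals the span in all 39 members outside the exonic category, because there the table gives the span as length, so these were not counted as single exons. The single-exon circles were 195 to 2425 bases long with a median of 962.5, against 467 in other genes, and 13 of the 14 matched 1 annotated exon. They held 13.1% of the member reads in PANC-1-GR (11.2 to 15.3%) and 12.1% in PANC-1 (10.2 to 14.3%), from 51 of 424, 45 of 325 and 48 of 349 reads in the PANC-1-GR libraries and 39 of 340, 54 of 387 and 28 of 271 in the PANC-1 libraries. These intervals pool the reads of a line and cover counting error only. Without hsa_circ_0001523 of ZNF608 the shares were 7.83% in PANC-1-GR and 8.55% in PANC-1.

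ZBTB genes gave 5 of the 14 single-exon circles and 129 of their 265 reads, mostly from hsa_circ_0002484 of ZBTB44. These ZBTB single-exon circles are mostly coding exons of 824 to 1605 bases, at exon 2 or 3 except for exon 9 of 10 in ZBTB20. Of all 14 single-exon circles, 6 held the start codon of the host gene. Several single-exon circles were sparse. The 889-base circle of ZBTB10 had 3 reads in PANC-1-GR and 7 in PANC-1, and hsa_circ_0011422 of ZBTB8A 1 read in PANC-1-GR and 5 in PANC-1. hsa_circ_0005332 of ZBTB20, a repressor known from liver and brain, had 3 reads in each line. hsa_circ_0047814 of ZNF532 (2363 bases) and hsa_circ_0008699 of ZNF516 (1967 bases) had 8 and 5 reads over both lines. These counts are too low for a comparison of the lines.

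Outside the exonic category the table filed 30 members as sense overlapping and 9 as intronic. They held 18.5% and 7.30% of the member reads, against 7.27% and 1.73% of the reads of other genes. Of the 153 intronic reads 72 came from 1 junction of ZNF286B (chr17:18574180-18575615), with 25, 10 and 9 reads in PANC-1-GR and 17, 7 and 4 in PANC-1. Its lines overlapped, and the first library was the highest of each line. The next were hsa_circ_0001726 of ZNF394 and hsa_circ_0004383 of ZNF292, the second of which had 2, 3 and 1 reads in PANC-1-GR and 1, 4 and 3 in PANC-1. ZNF609 hsa_circ_0000615 (chr15:64791492-64792365, + strand) was also filed as sense overlapping, with a length of 874 bases that matched no single annotated exon in both ends. Because of this filing it was not counted as a single-exon circle. Its 42 reads in PANC-1-GR and 25 in PANC-1 are outside the single-exon shares, which would be larger with them.

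Some exon lengths recurred across the members. The commonest were 127 bases, the usual length of the exon for the KRAB A box, and 96 bases, usual for the KRAB B box. An exon of 127 bases was part of 28 of the 118 matched circles (23.7%), from 25 genes, against 3.23% of matched circles of other genes. This length was picked as the commonest among the members, so the comparison with other genes favours them. In 13 of the 28 circles the 127-base exon was the first. The commonest circle length, 223 bases, came from 7 genes whose circles join this exon to the next of 96 bases, and no matched circle of another gene had this pair of lengths. The sequences of 3 of them are shown because they let the 2 exons be compared between genes. The 127-base exon is in lower case and the 96-base exon in capitals, and all 223 bases are coding.
ZNF680 hsa_circ_0002566: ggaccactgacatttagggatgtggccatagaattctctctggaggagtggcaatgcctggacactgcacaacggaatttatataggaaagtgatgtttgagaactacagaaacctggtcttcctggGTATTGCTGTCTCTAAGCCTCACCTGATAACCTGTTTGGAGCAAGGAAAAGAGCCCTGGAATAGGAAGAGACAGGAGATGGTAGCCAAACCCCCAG
ZNF720 hsa_circ_0007059: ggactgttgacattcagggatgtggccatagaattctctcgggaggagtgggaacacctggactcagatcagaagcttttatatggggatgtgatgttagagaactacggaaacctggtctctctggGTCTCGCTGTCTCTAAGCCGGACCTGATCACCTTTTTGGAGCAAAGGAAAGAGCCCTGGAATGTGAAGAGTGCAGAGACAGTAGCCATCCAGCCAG
ZNF91 23556544 to 23557566: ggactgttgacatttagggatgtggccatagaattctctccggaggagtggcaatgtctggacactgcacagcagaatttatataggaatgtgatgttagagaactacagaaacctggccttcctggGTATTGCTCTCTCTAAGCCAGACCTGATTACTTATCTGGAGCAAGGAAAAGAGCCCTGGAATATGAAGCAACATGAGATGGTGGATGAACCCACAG
Position by position, the 223-base circles of ZNF680 and ZNF91 were 88.3% identical and those of ZNF680 and ZNF720 80.3%. Over the 21 pairs of the 7 genes, which include ZNF12, ZNF66, ZNF675 and ZNF736, identity ran from 57.8 to 89.7% with a median of 80.3%. Reads short enough to fall in shared stretches could have been assigned to the wrong copy, and the read length is not stated. Of all 28 circles, the 127-base exon was 57.5 to 92.1% identical to that of ZNF680 in 25, and 25.2% in both circles of ZNF451, which shared the length alone.

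**Figure D4:**
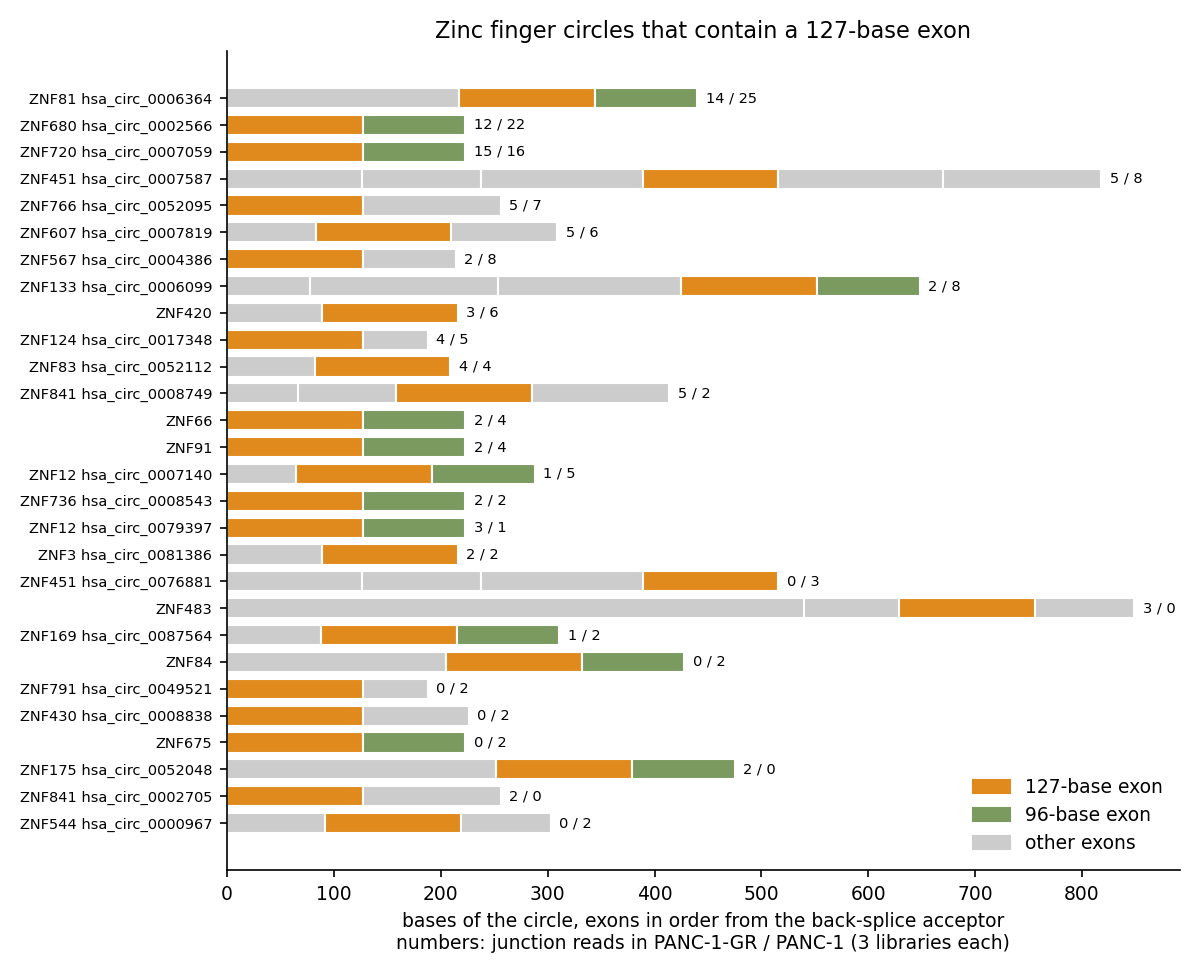
Exons of the 28 zinc finger circles that contain a 127-base exon, drawn to scale in bases (horizontal axis) from the back-splice acceptor; the numbers give junction reads in PANC-1-GR and then in PANC-1, each over 3 libraries. The 7 circles of 127 and 96 bases share one outline, and the most-read circle, hsa_circ_0006364 of ZNF81, had 14 reads in PANC-1-GR and 25 in PANC-1.

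These 28 circles had fewer reads in PANC-1-GR, 96 against 150 in PANC-1. Their summed level was 29.2, 22.8 and 32.1 junction reads per 10000 in the PANC-1-GR libraries and 50.2, 38.2 and 47.7 in the PANC-1 libraries. Every PANC-1-GR library was below every PANC-1 library. The means were 28.0 ± 4.79 in PANC-1-GR and 45.4 ± 6.33 in PANC-1 (SD, n = 3 each), a ratio of 0.618 that ran from 0.573 to 0.677 with each library left out in turn. The set was chosen after the table had been seen, so no test was made of it. Only the circles of ZNF81, ZNF680, ZNF720 and ZNF766 passed the filter, and none of them was called.

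The lower level was not confined to the most-read circles. Circles counted in the same 6 libraries are not replicates, so the counts below describe the chosen set and do not test it. The pooled level was lower in PANC-1-GR for 23 of the 28 (82.1%), against 67 of the 137 other zinc finger circles (48.9%) and 53.9% of the circles of all other genes. Circles with equal reads in both lines count as lower here, because the PANC-1-GR libraries held more junction reads in total. By reads alone, 20 of the 28 had fewer in PANC-1-GR, 3 had equal reads and 5 had more, against 62, 5 and 70 of the 137 other zinc finger circles. Among circles with at least 4 reads, 13 of 18 had fewer reads in PANC-1-GR, against 33 of 84 other zinc finger circles. Without the circles of ZNF451, ZNF81, ZNF680 and ZNF720, 23 circles remained. They had 23, 12 and 15 reads in PANC-1-GR and 30, 24 and 22 in PANC-1. Their levels per 10000 did not overlap (14.5 ± 2.00 in PANC-1-GR and 22.9 ± 2.38 in PANC-1). These 23 are part of the same chosen set and give no separate support. The other 137 zinc finger circles had 280.5, 329.6 and 288.4 in PANC-1-GR and 234.0, 290.2 and 239.7 in PANC-1, which overlapped. The 196 circles of other genes with a 127-base exon had 213 ± 4.76 in PANC-1-GR and 212 ± 12.6 in PANC-1 (SD, n = 3 each).

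Single circles of the set give the same picture only in part. hsa_circ_0007059 of ZNF720 had 6, 1 and 8 reads in PANC-1-GR and 7, 5 and 4 in PANC-1 (log2 fold change -0.13, standard error 0.57). ZNF91, a repressor of SVA retrotransposons, had 2 reads of this circle in PANC-1-GR and 4 in PANC-1. The 5 circles with a higher level in PANC-1-GR had 2 to 7 reads each and came from ZNF12, ZNF841, ZNF483 and ZNF175. The sense overlapping circles of ZNF124 begin at the acceptor of its 127-base exon but matched no annotated pair of exon ends and are outside the set, and they had 101 reads in PANC-1-GR and 82 in PANC-1.

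**Figure D5:**
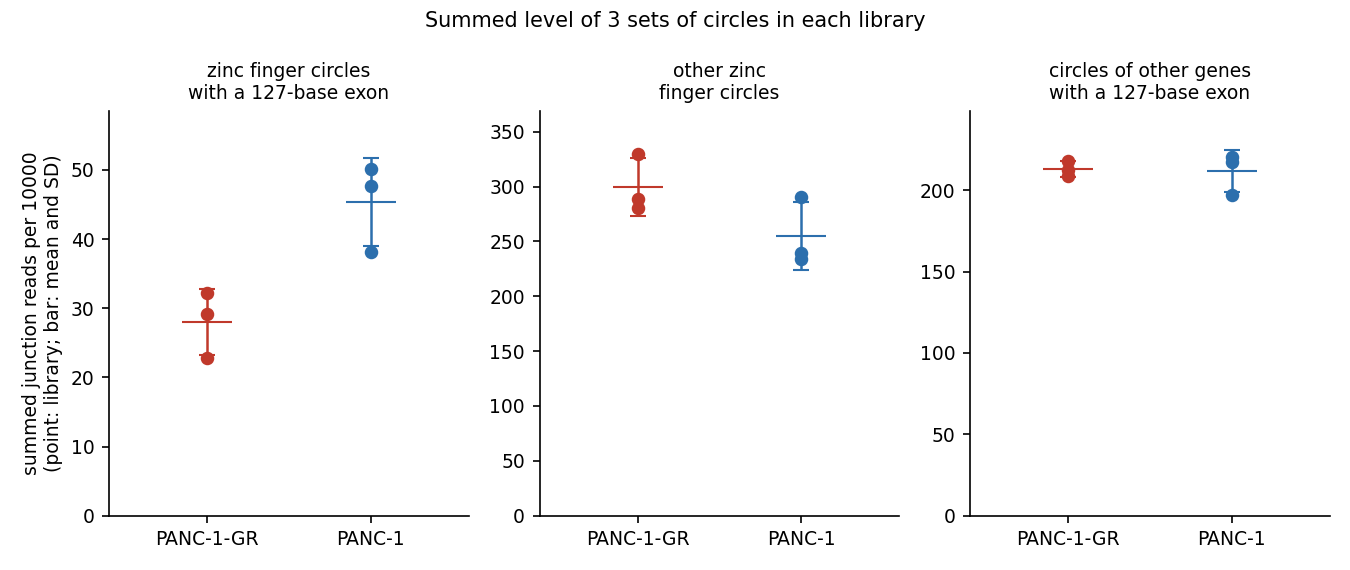
Summed junction reads per 10000 in each library (points, with mean and SD, n = 3 each) of the 28 zinc finger circles with a 127-base exon, the 137 other zinc finger circles, and the 196 circles of other genes with a 127-base exon; the vertical scales differ and start at 0. In the left panel the 3 PANC-1-GR libraries lie between 22.8 and 32.1, below the PANC-1 libraries at 38.2 to 50.2, while the lines overlap in the other panels.

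Chromosome 19, which carries the large clusters of KRAB zinc finger genes, held 35 of the 165 junctions (21.2%), against 2.39% of the junctions of other genes, from 26 of the 86 host genes. These circles were sparse, with 190 reads in all (9.06% of the member reads) and at most 22 in one circle. Of the 28 circles with a 127-base exon 14 lie on this chromosome.

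KLF12, a Krüppel-like repressor of the AP-2 alpha gene and the only KLF member, had 0, 0 and 0 reads in PANC-1-GR and 3, 3 and 1 in PANC-1, summed over 2 junctions. The interval of the ratio of pooled reads, which covers counting error only, ran from 0 to 0.681, and neither junction passed the filter. ZNF514, a KRAB gene, had 7, 5 and 1 reads of 1 circle in PANC-1-GR and 1, 1 and 0 in PANC-1, with no overlap of levels, and also failed the filter. Both were singled out after their values were seen. Of all 86 host genes, 50 had 1 junction each and 50 had 10 or fewer reads over the 6 libraries. Over all 165 circles, with no filter, the levels separated the lines in 4 with higher levels in PANC-1-GR (2.42%, against 2.67% of all listed circRNAs) and in 3 with lower levels (1.82%, against 2.05%).

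Genes for the partners of these proteins gave another view of the pathway. A list of 31 corepressor and partner genes of KRAB and BTB zinc finger proteins had junctions in 21 genes, with 54 junctions that held 204 reads in PANC-1-GR and 192 in PANC-1. The ratio of pooled reads was 1.04 (0.852 to 1.28, counting error only). Of 9 tested circles 0 were called higher and 1 lower, against 2.79% and 1.44% of all tested circRNAs, and the median log2 fold change was -0.20, against -0.04. The lower one was hsa_circ_0008309 of CUL3, the scaffold of ubiquitin ligases that take BTB proteins as adaptors, with 6, 3 and 0 reads in PANC-1-GR and 11, 4 and 6 in PANC-1. Its log2 fold change was -1.24 (standard error 0.60, unadjusted p = 0.0406 and adjusted p = 0.930 by edgeR), and the lines overlapped. hsa_circ_0001315 of FAM208A, a subunit of the HUSH silencing complex, had 8, 5 and 5 reads in PANC-1-GR and 4, 4 and 8 in PANC-1 (log2 fold change 0.11, standard error 0.54).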

How the data were processed

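CircRNAs were measured by RNA sequencing in 3 PANC-1-GR and 3 PANC-1 libraries, grouped by their labels. The deposited table holds, for every circRNA, counts of reads across the back-splice junction in each library, its host gene, category, length and hg19 coordinates, and also deposited log2 CPM values, made by the authors with edgeR. CASAVA 1.8, BWA and hg19 are named in the processing notes of the submitters. Neither the junction caller nor the read length is stated. Depth is given as junction reads, and levels are junction reads per 10000 of a library. They were not scaled by circle length, because a circle has 1 junction. Whether the recovery of junction reads depends on circle length was not tested.

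The whole table was fitted in R 4.3.3 with edgeR 4.0.16 (quasi-likelihood test, TMM, two-sided), for features with 3 or more reads in 3 or more libraries, once per circRNA and once on reads summed per host gene. P-values were adjusted over all tested features. Alternatives were RLE factors, library totals alone, DESeq2 1.42.0, limma-voom (limma 3.58.1), the exact test of edgeR, other filters, a prior count of 2, a replicate block, each library left out, and, chosen after seeing the data, limma on the deposited log2 values. Exons were matched in GENCODE release 29 by span and spliced length, with no conversion of coordinates. The tests were tried on simulated counts. Libraries of a line all differed by more than sampling noise. Named circles were those called, the 12 with the most reads, the 4 with the smallest p in each direction, the 8 most-read single-exon circles, the most-read circles of 6 genes known for circles, and the 3 most-read of each other category, and host genes were the 5 with the most junctions, the 8 with the most reads and the 3 with the smallest p in each direction. The members and lists were chosen with earlier results of these data known.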

Additional observations from a re-analysis of the deposited data

How the results depend on the processing

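The count of zinc finger circles called higher was 0 and became 1 with limma-voom, 1 with no filter (the ZNF514 circle), 1 with limma on the deposited log2 values (ZNF215 hsa_circ_0008338), and 0 to 2 with each library left out. Over all circRNAs, 19 of 969 were called higher with limma-voom and 72 of 7746 with no filter. It was 25 of 969 with limma on the deposited values, and 22 to 35 of 969 with each library left out. The count called lower was 0 under every alternative run, where 3 to 52 of all tested circRNAs were called lower. The count of host genes called higher was 0 and became 1 with limma-voom, 1 with no filter, and 0 to 1 with each library left out, and the count called lower was 0 and became 1 with no filter (KLF12). Over all host genes, 22 of 1093 were called higher with limma-voom and 14 to 28 of 1093 with each library left out. With no filter 38 of 3348 were called higher and 44 lower. The paper's heatmap legend describes 3 paired lines. Correlations of deviations between libraries of the same replicate number were 0.028, 0.014 and 0.013, and between unlike numbers -0.031 to 0.015. With so few reads per circle these values cannot show whether the libraries were paired. With the replicate block 0 circles and 0 host genes of the members were called. The share of reads in single-exon circles without its most-read junction was 7.83% in PANC-1-GR and 8.55% in PANC-1.

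Some log2 fold changes near 0 turned. The ZNF124 circle 247319708 to 247323115 was at 0.0076 with library totals alone, 0.043 with no filter, 0.0018 on the deposited log2 values, and -0.10 to 0.10 with each library left out. The ZNF292 host gene was at 0.023 with limma-voom, 0.035 with the replicate block, and -0.20 to 0.36 with each library left out. With each library left out, ZNF292 hsa_circ_0004058 ran from -0.057 to 0.43, the ZBTB46 host gene from -0.071 to 0.39, ZKSCAN1 from -0.40 to 0.037, ZNF124 from -0.041 to 0.38 and ZNF207 from -0.060 to 0.61. The summed ratio of all members, 1.09 from the mean levels, ran from 1.05 to 1.15 with each library left out. Junction depth limits all of these values, since 136 of the 165 circles had too few reads for the test.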
